A study of Mus musculus with 12 samples.

Results

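Islet hormones and granins are the secreted products of the endocrine cells of the pancreas. The set described here was a list of 10 genes, namely Ins1, Ins2, Gcg, Sst, Ppy, Pyy, Iapp, Ghrl, Chga and Chgb, named one by one rather than picked by a threshold on these arrays. The list was drawn up with earlier results of these data known. Each gene was read from the probe set that carried its symbol alone and had the highest mean over the 12 arrays. 9 of the 10 were measured, among 22180 genes in all, and each had a single probe set. Ins1, the second mouse insulin gene, matched no probe set by symbol and has no value here. Whether the Ins2 probes also bind its near-identical copy was not tested.

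Mouse pancreatic cells of 4 kinds were profiled on Affymetrix arrays, 3 arrays each. Tumor cells were cultured at low passage in standard medium. The ADM group (acinar-to-ductal metaplasia, the change of enzyme-making acinar cells into duct-like cells) held cells kept for 7 days in 3-dimensional collagen with 50 ng/ml TGF-alpha, an EGF receptor ligand. Acinar cells of embryonic and of adult pancreas were freshly freed by enzyme digestion and gave RNA without culture. All 4 groups carry the same strain label, C57Bl6/J wildtype, the tumor cells too, so no allele behind the tumors is named; ages and the embryonic day are not given in the sources used here. The labels do not say whether the arrays of a group came from separate animals or cultures, nor whether the 3 tumor arrays come from 1 line, so the p-values measure the spread between these arrays, which may be technical.

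As background, islet endocrine cells arise in the embryo from pancreatic progenitors that pass through a stage marked by the transcription factor Neurog3. Beta cells then make insulin and islet amyloid polypeptide (Iapp), alpha cells glucagon (Gcg), delta cells somatostatin (Sst), PP cells pancreatic polypeptide (Ppy), and epsilon cells, which are mainly a feature of the developing pancreas, ghrelin (Ghrl). Peptide YY (Pyy) is made in the developing islet and by endocrine cells of the gut. The chromogranins Chga and Chgb are acidic proteins that pack hormones into dense-core granules; neurons and adrenal cells make them too. Acinar cells are not known as a source of these products. In bulk samples such as these, fewer cells of a type and less RNA per cell cannot be told apart.

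Ins2 lies on mouse chromosome 7, Gcg and Chgb on 2, Sst on 16, Iapp and Ghrl on 6, and Chga on 12. Ppy and Pyy are neighbours on chromosome 11, with 0 annotated genes between them. Windows of 250 bases ending at the annotated gene start were read from RefSeq promoters (GRCm38.p6), which matched 8 of the 9 measured genes in 12 windows; Ins2 had no entry. The windows below are shown because they hold a motif known from hormone and granin genes. All 9 measured genes had their highest mean in embryonic cells, so that level does not set the genes shown apart. Capitals mark the motif. The first 3 windows hold the cyclic AMP response element or a form of it. In Sst, chr16:23890845-23891094, minus strand, TGACGTCA starts 48 bases before the gene. In Chgb, chr2:132781392-132781641, plus strand, the same letters start 72 bases before it. In Chga, chr12:102554691-102554940, plus strand, the form TGACGTAA starts 44 bases before it. The other 2 hold CAGATG, an E-box, or its reverse complement CATCTG. In Gcg, chr2:62483654-62483903, minus strand, CAGATG starts 139 and 83 bases before the gene. In Iapp, chr6:142298175-142298424, plus strand, CATCTG starts 111 bases before it.
Sst: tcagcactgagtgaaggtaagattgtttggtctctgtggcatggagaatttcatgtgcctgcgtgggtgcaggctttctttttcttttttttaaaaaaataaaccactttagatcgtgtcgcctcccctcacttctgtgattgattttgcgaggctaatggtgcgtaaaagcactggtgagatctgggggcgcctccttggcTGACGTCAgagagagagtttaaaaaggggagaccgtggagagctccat
Chgb: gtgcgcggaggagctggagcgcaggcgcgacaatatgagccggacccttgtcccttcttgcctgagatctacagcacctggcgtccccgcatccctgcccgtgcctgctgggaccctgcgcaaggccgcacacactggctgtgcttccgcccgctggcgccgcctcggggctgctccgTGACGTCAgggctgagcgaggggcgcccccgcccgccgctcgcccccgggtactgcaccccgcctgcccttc
Chga: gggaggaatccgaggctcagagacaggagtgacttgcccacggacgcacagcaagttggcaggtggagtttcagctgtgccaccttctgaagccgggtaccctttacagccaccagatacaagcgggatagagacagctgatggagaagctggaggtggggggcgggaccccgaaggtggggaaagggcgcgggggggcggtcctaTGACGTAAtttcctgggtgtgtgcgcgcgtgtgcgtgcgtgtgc
Gcg: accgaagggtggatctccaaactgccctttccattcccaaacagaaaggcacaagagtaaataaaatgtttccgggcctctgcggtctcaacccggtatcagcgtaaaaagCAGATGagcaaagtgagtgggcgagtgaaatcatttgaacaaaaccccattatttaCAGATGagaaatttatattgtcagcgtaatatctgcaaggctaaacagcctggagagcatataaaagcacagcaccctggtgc
Iapp: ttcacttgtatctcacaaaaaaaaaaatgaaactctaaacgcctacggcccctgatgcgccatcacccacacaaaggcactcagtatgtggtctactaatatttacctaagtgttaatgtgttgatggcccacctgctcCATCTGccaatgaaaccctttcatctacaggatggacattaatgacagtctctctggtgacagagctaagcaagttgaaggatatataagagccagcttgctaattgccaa
Searched on both strands, TGACGTCA stood in 1.55% of 32851 such windows, TGACGTAA in 0.447% and CAGATG in 14.4%. The motifs do not share letters in any window printed. These letters are not in the windows of Ppy, Pyy and Ghrl. A match is a description of the sequence; whether a factor binds there was not tested.

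The deposited values are on a log2 scale and ran from 1.56 to 13.67. Arrays of a group correlated at 0.967 to 0.991 over all genes, and arrays of different groups at 0.817 to 0.938. The background level, 3.61, was that which 95% of the group means of 1429 smell, pheromone and taste receptor genes did not exceed. A gene was called at an adjusted p under 0.05 in limma (Benjamini-Hochberg over all genes) and an absolute log2 change of at least 1. The acinar label was checked on 12 enzyme genes such as Cpa1 and Prss1. Their summed linear signal was 155 to 217 on tumor arrays, 16168 to 24574 on ADM arrays, 53991 to 63186 on embryonic arrays and 75562 to 76980 on adult arrays.

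Each of the 9 genes had its highest mean in embryonic cells. The summed linear signal of the 9 was 160 to 282 on tumor arrays, 1011 to 1947 on ADM arrays, 12202 to 15061 on embryonic arrays and 2060 to 3025 on adult arrays. All 9 lay above background in embryonic and in adult cells, 8 in ADM cells and 7 in tumor cells. The genes at or under it were Ghrl in ADM cells, and Ghrl and Chgb in tumor cells.

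**Figure D1:**
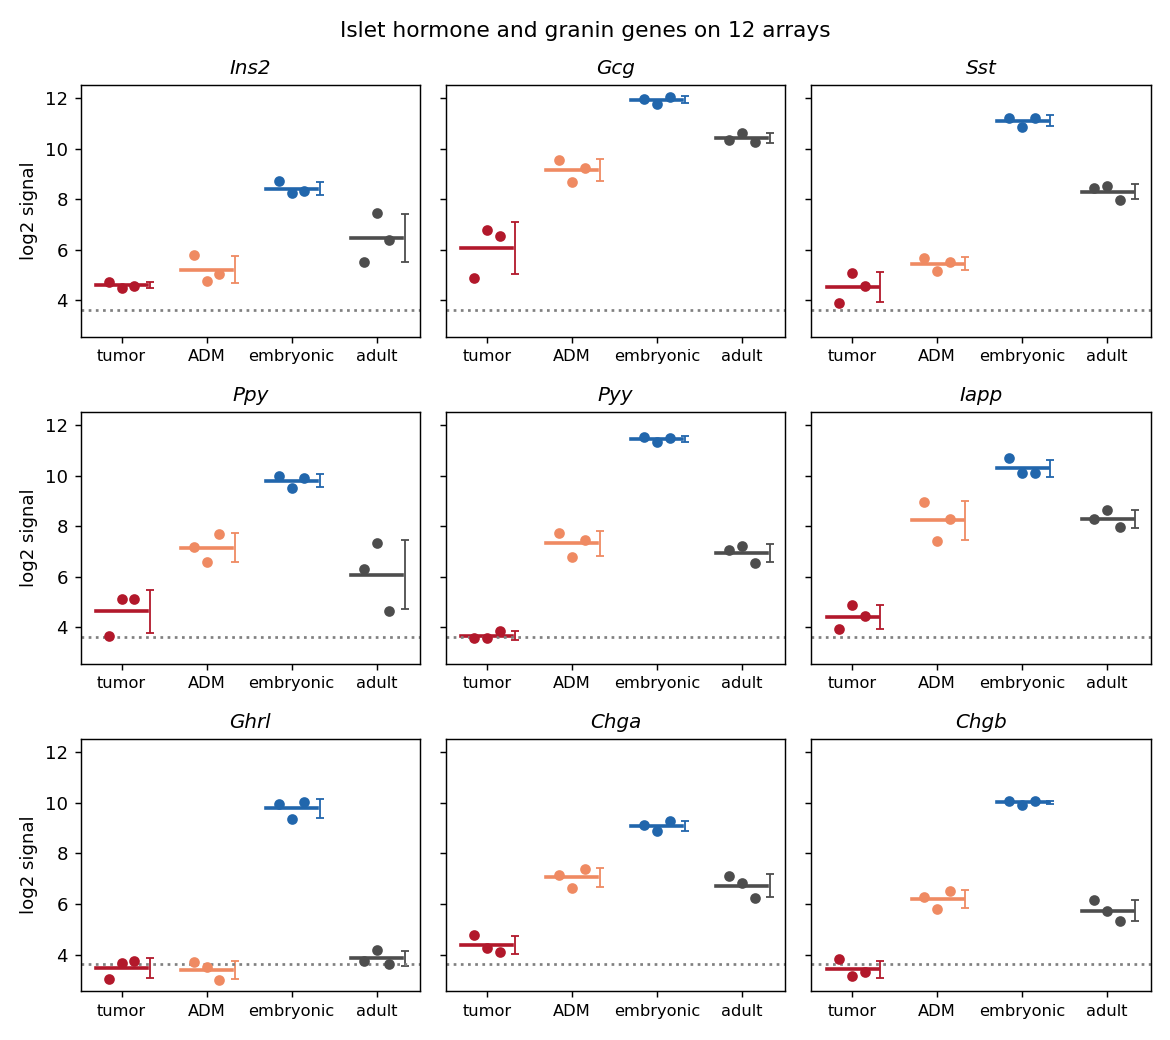
Log2 signal (y axis) of the 9 measured genes on each of 12 arrays, in tumor, ADM, embryonic and adult groups. Points are arrays, thick lines means, bars 1 SD (n = 3) and the dotted line the background level of 3.61. The embryonic points lie above those of the other groups in every panel.

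The first question is how embryonic acinar cells differ from adult ones. All 9 genes were called higher in embryonic cells, where 10% of all genes were called higher and 2.61% lower. With arrays centred on housekeeping genes it was 8 of the 9, beside 4.93% of all genes. In all 9, every embryonic array lay above every adult array, which held for 22% of all genes. The median log2 change of the 9 was 2.81, against -0.09 over all genes. The changes ran from 1.52 for Gcg to 5.94 for Ghrl.

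Ghrl, the hormone of epsilon cells, differed most. Its log2 signal was 9.96, 9.36 and 10.05 on the embryonic arrays, against 3.74, 4.19 and 3.63 on the adult arrays. The adult arrays lay close to background, and no embryonic array came near them. The log2 change was 5.94 ± 0.26 (SE, n = 3 each; limma adjusted p = 7.21e-09), or 61.3-fold.

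Pyy stood at 11.55, 11.33 and 11.51 in embryonic cells, against 7.05, 7.22 and 6.55 in adult cells. It was 4.52 ± 0.24 higher on the log2 scale (limma adjusted p = 3.9e-08). Its neighbour Ppy, the hormone of PP cells, stood at 9.99, 9.52 and 9.92 in embryonic cells, against 6.29, 7.33 and 4.64 in adult cells. The adult arrays of Ppy were spread widely (SD 1.36), the embryonic ones were not, and the groups did not overlap. The change of Ppy was 3.72 ± 0.56 (limma adjusted p = 0.000271).

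Sst, the delta cell hormone that restrains the release of other hormones, read 11.23, 10.87 and 11.23 in embryonic cells, against 8.44, 8.52 and 7.95 in adult cells. It was 2.81 ± 0.27 higher (limma adjusted p = 6.13e-06). Ins2, the beta cell hormone that lowers blood glucose, read 8.71, 8.23 and 8.32 in embryonic cells, against 5.53, 7.44 and 6.37 in adult cells. Here the adult arrays again differed more among themselves (SD 0.957) than the embryonic ones. Ins2 was 1.97 ± 0.38 higher (limma adjusted p = 0.00173). Iapp, which beta cells store and release with insulin, read 10.69, 10.1 and 10.1 in embryonic cells, against 8.29, 8.66 and 7.96 in adult cells. Its change of 1.99 ± 0.35 (limma adjusted p = 0.000854) was close in size to that of Ins2.

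Gcg, the hormone that raises blood glucose, read 11.95, 11.78 and 12.05 in embryonic cells, against 10.33, 10.63 and 10.27 in adult cells. Its change of 1.52 ± 0.39 was the smallest of the 9 (limma adjusted p = 0.0102). With arrays centred on housekeeping genes it was 0.95, under the fold minimum (limma adjusted p = 0.0227).

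The granins were higher too. Chga read 9.11, 8.89 and 9.27 in embryonic cells, against 7.09, 6.84 and 6.22 in adult cells, a log2 change of 2.37 ± 0.26 (limma adjusted p = 1.75e-05). Chgb read 10.06, 9.93 and 10.06 in embryonic cells, against 6.16, 5.71 and 5.34 in adult cells. Its change of 4.28 ± 0.24 was larger in size (limma adjusted p = 7.48e-08), but the difference between the 2 granins was not tested.

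Markers of other cells moved with these genes. In embryonic against adult cells, 10 of 10 measured fibroblast markers, 8 of 10 endothelial, 7 of 9 immune and 5 of 11 neural markers were called higher, and none of these lists had a gene called lower. The fibroblast sum was 6696 to 10680 on embryonic arrays and 976 to 1007 on adult arrays. The neural sum was 602 to 640 on embryonic arrays and 125 to 145 on adult arrays. Gap43, a protein of growing axons, was 3.66 ± 0.21 higher (limma adjusted p = 7.63e-08). Since neurons also make granins, this stands beside the Chga and Chgb values; the part of these cells in the result was not tested. Among the 12 acinar genes, 2 were called lower.

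**Figure D2:**
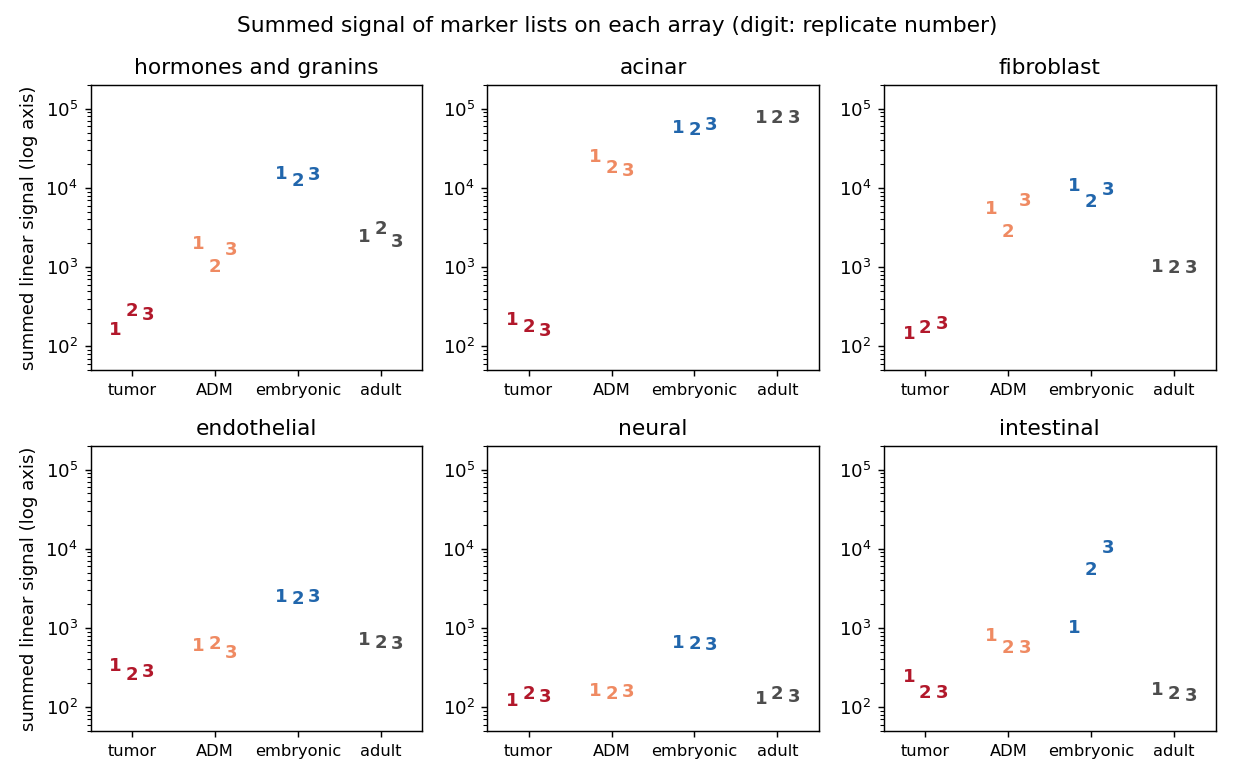
Summed linear signal (y axis, log scale) of the 9 hormone and granin genes and of 5 marker lists on each array, in tumor, ADM, embryonic and adult groups. Digits are replicate numbers. Hormone and granin sums are 12202 to 15061 on embryonic arrays and 2060 to 3025 on adult arrays; the intestinal sum runs from 1000 to 10133 within the embryonic group.

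The embryonic arrays differed from each other in intestinal genes, but little in islet hormones. Fabp1, a fatty acid carrier of intestine and liver, read 7.93, 10.91 and 11.73 on the 3 embryonic arrays. Apoa4, an intestinal apolipoprotein, read 6.86, 10.16 and 11.17. Across the 9 intestinal markers above background in embryonic cells, the range within the group had a median of 2.85 log2 units. For the 9 hormone and granin genes that range was 0.13 to 0.69, with a median of 0.38. The median range was similarly small in 12 acinar markers (0.33) and 13 endocrine factors (0.5). Pyy, which gut endocrine cells also make, read 11.33 to 11.55 on arrays whose intestinal sums were 1000, 5403 and 10133. Which cells the Pyy signal came from was not tested. Sct, the gut hormone secretin, read 5.97, 6.57 and 8.55 on the same arrays, and Cck, the gut hormone that stimulates acinar secretion, read 4.56, 5.34 and 6.54. Gast, the stomach hormone gastrin, ran the other way, at 6.44, 5.97 and 5.81, and the opioid precursor Penk was also highest on the first array (7.57, 7.04 and 7.18).

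**Figure D3:**
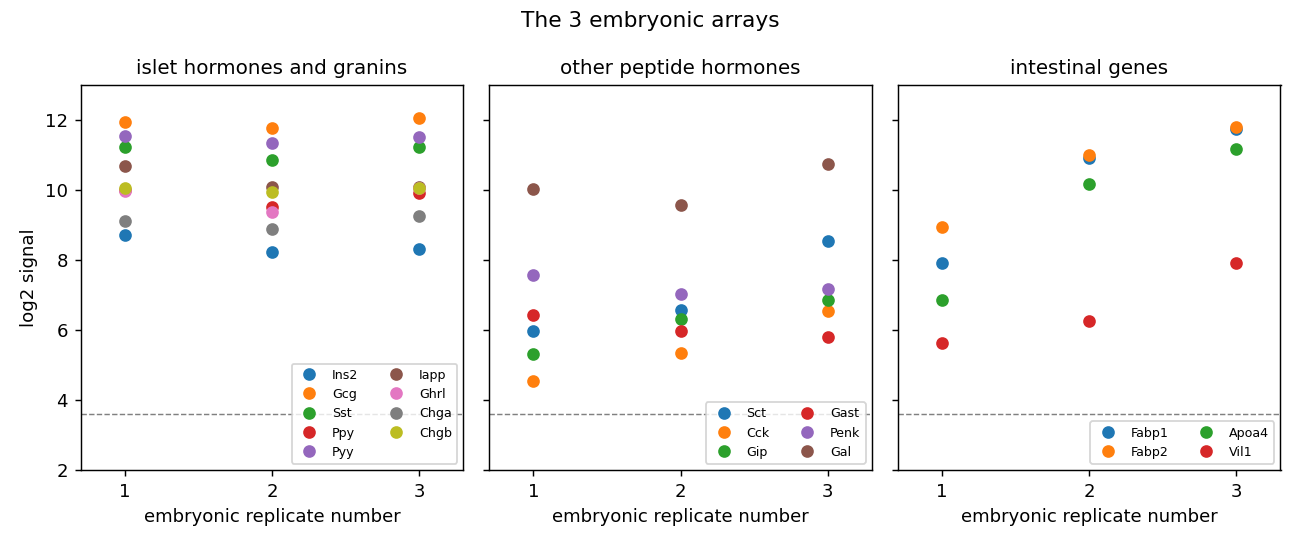
Log2 signal (y axis) on the 3 embryonic arrays (x axis, replicate number) for the 9 hormone and granin genes, 6 other peptide hormones and 4 intestinal genes. The dashed line is the background level of 3.61. Points of the first panel move by 0.13 to 0.69 between arrays; Fabp1 in the last panel lies between 7.93 and 11.73.

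The next comparison sets ADM cultures against adult acinar cells. All 3 comparisons with adult cells share the same adult arrays. In ADM cells 3 of the 9 genes were called lower, namely Sst, Gcg and Ins2, where 4.22% of all genes were called lower. None was called higher, where 12.5% of all genes were. With arrays centred on housekeeping genes 4 of the 9 were called lower, beside 23.8% of all genes. In 2 of the 9, every ADM array lay below every adult array, as in 24.7% of all genes. The median change of the 9 was -0.08, against -0.11 over all genes.

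Sst changed most. It read 5.65, 5.14 and 5.52 in ADM cells, against 8.44, 8.52 and 7.95 in adult cells. With no overlap, it fell by 2.87 ± 0.27 on the log2 scale (limma adjusted p = 2.87e-06), a 7.3-fold difference.

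Gcg read 9.55, 8.66 and 9.24 in ADM cells, against 10.33, 10.63 and 10.27 in adult cells. It fell by 1.26 ± 0.39 (limma adjusted p = 0.0217). Ins2 read 5.8, 4.76 and 5.05 in ADM cells, against 5.53, 7.44 and 6.37 in adult cells. The Ins2 arrays overlapped, since the first ADM array was above the first adult array, and the change was -1.24 ± 0.38 (limma adjusted p = 0.0218). These 2 calls changed when single arrays were left out. Without ADM replicate 2 both were lost (limma adjusted p = 0.0891 for Ins2 and 0.0912 for Gcg), as they were without adult replicate 2 (0.0818 and 0.068), where the Ins2 change was -0.75. Without ADM replicate 3 the Ins2 call was lost (limma adjusted p = 0.0697), and in a fit of the 2 groups alone too (0.0634).

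The other 6 genes were not called. Iapp read 8.97, 7.43 and 8.28 in ADM cells, against 8.29, 8.66 and 7.96 in adult cells, a change of -0.08 with a 95% interval of -0.831 to 0.678 (limma adjusted p = 0.877). With the deposited scaling, the interval leaves out changes of 1 log2 unit in either direction. Pyy read 7.73, 6.77 and 7.46 in ADM cells, against 7.05, 7.22 and 6.55 in adult cells. The ADM and adult arrays overlapped in Iapp, Pyy and both granins. Chga read 7.16, 6.65 and 7.37 in ADM cells, against 7.09, 6.84 and 6.22 in adult cells. Chgb read 6.27, 5.8 and 6.53 in ADM cells, against 6.16, 5.71 and 5.34 in adult cells. The changes were 0.38 for Pyy (interval -0.131 to 0.891), 0.34 for Chga (-0.21 to 0.897) and 0.46 for Chgb (-0.059 to 0.986), and all 3 turned negative with arrays centred on housekeeping genes. So in these 4 genes a difference of 1 log2 unit or more lay outside the interval, which does not show that levels were equal. This holds for the deposited scaling only. Housekeeping centring moved the median change of all genes in this comparison from -0.11 to -0.717, and intervals under it are not given, for Iapp either.

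Ppy read 7.18, 6.57 and 7.71 in ADM cells, against 6.29, 7.33 and 4.64 in adult cells. Its change of 1.07 ± 0.56 was not called (limma adjusted p = 0.155), with an interval of -0.149 to 2.282. Without adult replicate 2 it was 1.69 and called (limma adjusted p = 0.0271). Ghrl averaged under background in ADM cells (3.7, 3.5 and 3.01) and close to it in adult cells (3.74, 4.19 and 3.63), and was not called (limma adjusted p = 0.185).

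**Figure D4:**
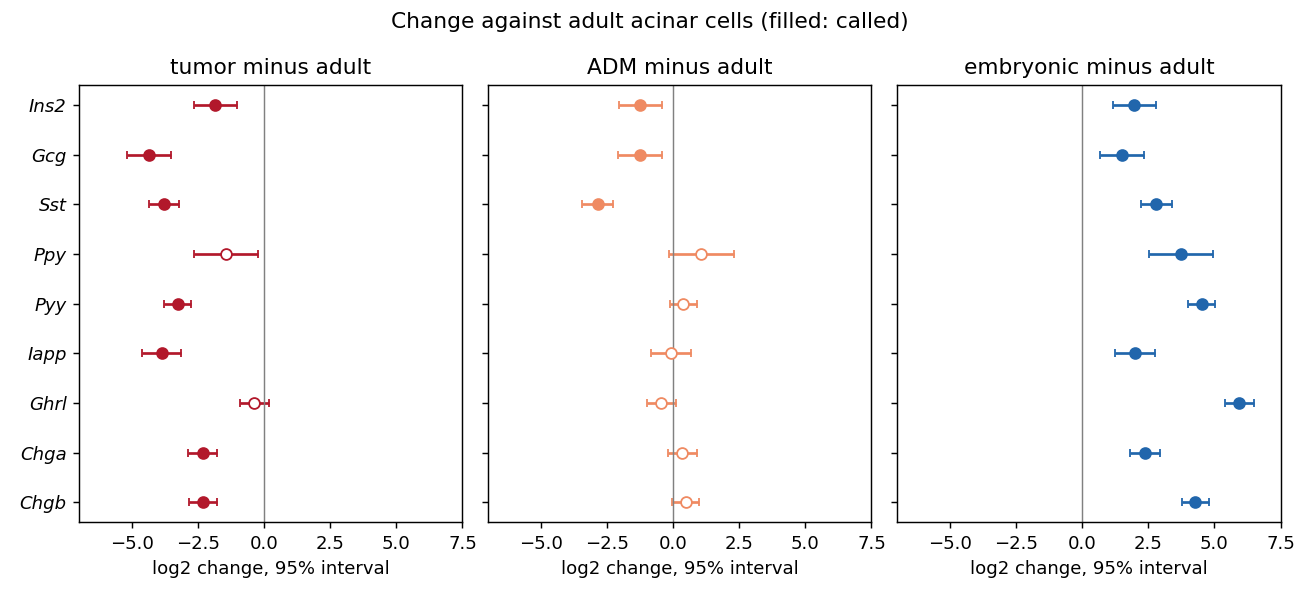
Log2 change (x axis) of the 9 genes in tumor, ADM and embryonic cells, each minus adult cells, with 95% intervals from limma. Filled points are called, open points are not. All 9 points are right of 0 in embryonic cells, 3 are filled in ADM cells and 7 in tumor cells.

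ADM replicate 2 had the lowest value of its group in 8 of the 9 hormone and granin genes, all but Ghrl. It was also lowest in 10 of 10 fibroblast markers, with a fibroblast sum of 2810 beside 5494 and 6815 on the other ADM arrays. Other lists were mixed: ADM replicate 2 was lowest in 0 of 10 endothelial, 3 of 12 acinar and 5 of 11 neural markers. It was highest in 6 of the 10 endothelial markers. Its immune sum was the lowest of the group (678, beside 1102 and 714). Its duct sum was the highest (8631, beside 6740 and 7534). The fibroblast markers as a list were higher in ADM than in adult cells in 9 of 10 genes. In the embryonic group, replicate 2 was lowest (ties included) in 9 of 9 hormone and granin genes and in 9 of 10 fibroblast markers. It was also lowest in 6 of 10 endothelial and 7 of 12 acinar markers. Whether the fibroblast share or another property of these arrays moved the hormone values was not tested. Tumor replicate 1 was lowest of its group in 5 of the 9 genes (Gcg, Sst, Ppy, Iapp and Ghrl) and highest in 3 (Ins2, Chga and Chgb). Adult replicate 2 was highest in 7 of the 9 genes, and adult replicate 3 lowest in 8. Among the 10 fibroblast markers, adult replicate 2 was lowest in 5 and highest in 4.

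In tumor cells 7 of the 9 genes were called lower than in adult cells, where 5.96% of all genes were called lower. None was called higher, where 14% of all genes were. With arrays centred on housekeeping genes all 9 were called lower, beside 36.8% of all genes. In the same 7, every tumor array lay below every adult array, as in 20.8% of all genes. The median change of the 9 was -2.33, against -0.09 over all genes. Gcg read 4.88, 6.76 and 6.54 in tumor cells, against 10.33, 10.63 and 10.27 in adult cells. It fell by 4.35 ± 0.39 (limma adjusted p = 1.07e-06), or 20.4-fold, and stayed above background.

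Iapp read 3.93, 4.87 and 4.45 in tumor cells, against 8.29, 8.66 and 7.96 in adult cells, and fell by 3.89 ± 0.35 (limma adjusted p = 1.21e-06). Sst read 3.9, 5.09 and 4.56 in tumor cells, against 8.44, 8.52 and 7.95 in adult cells, and fell by 3.79 ± 0.27 (limma adjusted p = 1.32e-07). Pyy read 3.58, 3.56 and 3.87 in tumor cells, against 7.05, 7.22 and 6.55 in adult cells, and fell by 3.27 ± 0.24 (limma adjusted p = 1.63e-07). These hormones came close to background in tumor cells, and 2 of the 3 tumor arrays of Pyy lay under it. Of the granins, Chga fell by 2.33 ± 0.26 (limma adjusted p = 7.77e-06), with 4.79, 4.26 and 4.1 in tumor cells. Chgb was under background on 2 of 3 tumor arrays (3.81, 3.14 and 3.29) and at least 4.36-fold lower than in adult cells (limma adjusted p = 4.74e-06).

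Ins2 read 4.71, 4.5 and 4.58 in tumor cells, against 5.53, 7.44 and 6.37 in adult cells, and fell by 1.85 ± 0.38 (limma adjusted p = 0.00161). Ppy read 3.66, 5.13 and 5.14 in tumor cells, against 6.29, 7.33 and 4.64 in adult cells. With 1 adult array below 2 tumor arrays, its change of -1.44 ± 0.56 missed the threshold (limma adjusted p = 0.0603). It was called, at -2.17, without adult replicate 3 (limma adjusted p = 0.00297), and with arrays scaled by quantiles, by loess or on housekeeping genes, at -1.70, -1.94 and -2.22. Ghrl, at 3.03, 3.65 and 3.73 in tumor cells, was not called against adult cells (limma adjusted p = 0.266). The acinar genes were called lower in tumor cells in 12 of 12 cases. Tumor sums of the endothelial (256 to 326) and fibroblast (142 to 189) markers also lay below the adult sums of 619 to 703 and 976 to 1007. Of 10 endothelial markers 6 were called lower and 1 higher, Flt1, by 1.24 (limma adjusted p = 0.000439). Of 10 fibroblast markers 4 were called lower and 0 higher. The part of these cells in the hormone values was not tested.

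Against ADM cultures, 6 of the 9 genes were called lower in tumor cells, where 5.07% of all genes were called lower and 3.28% higher. In 8 of the 9, every tumor array lay below every ADM array, as in 13.9% of all genes. Iapp fell by 3.81 ± 0.35 (limma adjusted p = 5.46e-06), Pyy by 3.65 ± 0.24 (2.04e-07), Gcg by 3.09 ± 0.39 (9.36e-05), Chga by 2.68 ± 0.26 (8.05e-06) and Ppy by 2.51 ± 0.56 (0.0076). Chgb was at least 6.02-fold lower (limma adjusted p = 3.26e-06). The other 3 were not called. Sst changed by -0.92 ± 0.27, under the fold minimum (limma adjusted p = 0.0331), Ins2 by -0.61 ± 0.38 (0.382), and Ghrl averaged under background in both groups. The 10 fibroblast markers were all called lower as well, and their part in this was not tested.

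Embryonic cells stood apart from both cultures. All 9 genes were called lower in ADM than in embryonic cells, where 4.91% of all genes were called lower and 4.55% higher. All 9 were also called lower in tumor than in embryonic cells, where 7.8% of all genes were called lower and 6.53% higher. The 2 comparisons share the embryonic arrays. In ADM cells the changes ran from -2.03 for Chga to -5.67 ± 0.27 for Sst (51-fold; limma adjusted p = 1.01e-08), and Ghrl was at least 72.5-fold lower. In tumor cells they ran from -3.82 for Ins2 to -7.79 ± 0.24 for Pyy (limma adjusted p = 9.95e-11), whose tumor mean of 3.67 lay just above background, and Chgb was at least 84.8-fold lower. No tumor or ADM array overlapped an embryonic array in any of the 9 genes; that held for 17.5% of all genes between ADM and embryonic cells in this direction, and 16.6% between tumor and embryonic cells. Markers of several other cell types, though not of duct cells as a list, were lower too. In ADM against embryonic cells 10 of 10 endothelial, 6 of 9 immune, 4 of 11 neural and 4 of 10 fibroblast markers were called lower, with 1 fibroblast marker higher. In tumor against embryonic cells 10 of 10 fibroblast, 9 of 10 endothelial, 8 of 9 immune and 5 of 11 neural markers were called lower. Of 8 duct markers, 6 were called higher and 0 lower in ADM than in embryonic cells. In tumor against embryonic cells 3 duct markers were higher and 3 lower. The part of these other cells in the hormone values was not tested.

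The order of the group means is given as a description. In Sst, Gcg, Ins2 and Iapp it was embryonic, adult, ADM and tumor from high to low. The neighbours adult and ADM were called different in Sst, Gcg and Ins2, while in Iapp they lay 0.08 apart and were not called. The neighbours ADM and tumor were called in Gcg and Iapp. They were not called in Ins2 (0.61 apart) and Sst (0.92 apart). In Ppy, Pyy, Chga and Chgb the ADM mean lay above the adult mean, these neighbours were not called, and their order turned on housekeeping genes in Pyy (-0.23), Chga (-0.26) and Chgb (-0.14) and by quantiles in the same 3 genes. In Ppy the neighbours adult and tumor were not called either. In Ghrl embryonic cells stood alone above the other 3 groups, which were not called different from each other.

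Over the 12 arrays the 9 genes followed each other to different degrees. Pearson's r between pairs ran from 0.685 for Iapp and Ghrl to 0.992 for Pyy and Chgb. These correlations are descriptions over arrays that fall into 4 groups. Among all other genes, the nearest to Pyy was Scg2 (r = 0.997), a granin-related granule protein, which was also the nearest to Chgb (r = 0.994). Nearest to Sst were Sult1a1 (0.983), Sox6 (0.982) and Nkx2-2 (0.975). Nearest to Gcg were Triqk (0.980), Plvap (0.976) and Mia (0.971), and nearest to Ins2 were Slc7a14 (0.972), Sox6 (0.971) and Slc6a4 (0.970). Nearest to Iapp were Sparcl1 (0.983), Sorbs3 (0.982) and the fibroblast marker Dcn (0.981). Nearest to Ghrl were Agtr2 (0.995), Gpm6a (0.994) and Stfa1 (0.993). Nearest to Ppy was Aldh1a2 (0.971), and nearest to Chga was Meis1 (0.985).

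The genes that make, store and release the hormones were described from lists chosen by function, with earlier results of these data known. Their counts stand beside 10% of all genes called higher and 2.61% lower in embryonic against adult cells. Of 8 granule proteins, 3 were called higher and 1 lower in embryonic than in adult cells. Scg2 read 9.16, 8.57 and 9.05 in embryonic cells, against 5.46, 5.58 and 4.99 in adult cells, 3.58 ± 0.22 higher (limma adjusted p = 1.27e-07). Scg3, which binds Chga in the granule, was 3.36 ± 0.29 higher (limma adjusted p = 2.52e-06). Of 7 prohormone processing enzymes, 2 were higher and 2 lower. Pcsk1, a convertase that cuts proinsulin, was 2.89 ± 0.18 higher (limma adjusted p = 1.94e-07), and Ero1b, an oxidase of disulfide formation, was lower (-1.57 ± 0.21; limma adjusted p = 8.17e-05).

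Of 10 beta cell genes, 4 were higher and 1 lower in embryonic cells. Slc30a8, the zinc carrier of insulin granules, was at least 16.1-fold higher (limma adjusted p = 1.44e-07). Glp1r, the receptor of the incretin made from the Gcg precursor, was lower, at 5.26, 4.35 and 6.5 in embryonic cells, against 8.91, 8.48 and 8.71 in adult cells. Of 10 genes of other islet cells, 2 were higher and 1 lower, with the retinol carrier Rbp4 2.98 ± 0.20 higher (limma adjusted p = 2.57e-07). Of 14 endocrine transcription factors, 6 were higher and none lower. Neurog3 read 8.5, 8.8 and 8.06 in embryonic cells and was at background in adult cells, at least 28.7-fold higher (limma adjusted p = 5.11e-08). Isl1, a factor of islet cells, was 3.16 ± 0.30 higher (limma adjusted p = 6.58e-06). Of 15 vesicle release genes, 4 were higher, with the membrane fusion protein Snap25 at least 5.17-fold higher (limma adjusted p = 2.02e-05). Of 15 other peptide genes, 6 were higher and 1 lower. Of those called higher, Sct, Cck and Gip (5.31, 6.33 and 6.86) rose over the embryonic arrays as the intestinal genes did, while Penk, Gast and Nmb did not.

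Of 16 hormone receptor genes, none was called higher and 2 lower in embryonic cells. Sstr2, a somatostatin receptor, read 4.62, 4.45 and 4.67 in embryonic cells, against 6.77, 6.9 and 5.52 in adult cells (-1.82 ± 0.32; limma adjusted p = 0.000927). It was also lower than in adult cells in ADM cells (-2.24; 0.000117) and tumor cells (-2.54; 2.76e-05). Ramp1, a partner of calcitonin-family receptors, was lower than in adult cells in embryonic (-1.80), ADM (-2.16) and tumor cells (-2.17).

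In ADM against adult cells, where 12.5% of all genes were called higher and 4.22% lower, 1 of 14 endocrine factors was called lower (Nkx2-2, -1.08 ± 0.17; limma adjusted p = 0.000215) and none higher. Of 8 granule proteins, 1 was higher and 1 lower. They were Ptprn and Ptprn2, related membrane proteins of dense-core granules, and they moved in opposite directions. Ptprn read 8.34, 7.77 and 7.82 in ADM cells, against 4.26, 4.31 and 3.59 in adult cells, and rose by 3.92 ± 0.34 (limma adjusted p = 1.34e-06). Ptprn2 read 5.1, 4.75 and 4.6 in ADM cells, against 8.6, 8.85 and 8.44 in adult cells, and fell by 3.81 ± 0.27 (limma adjusted p = 2.62e-07). Of 7 processing enzymes 2 were higher and 1 lower, with the carboxypeptidase Cpe at 1.59 ± 0.17 (limma adjusted p = 9.63e-06) and Ero1b at -5.16 ± 0.21 (1.42e-09). Of 10 beta cell genes none was higher and 2 lower, Glp1r (-3.20 ± 0.38; limma adjusted p = 2.18e-05) and G6pc2 at least 1.6-fold (0.00701). Of 10 genes of other islet cells 1 was higher, the delta cell factor Hhex (1.23 ± 0.31; limma adjusted p = 0.00698), and 2 lower, Slc38a5 at least 85.4-fold (1.04e-09) and Ttr (-1.44 ± 0.26; 0.000752). The mean of Slc38a5 was 10.03 in adult and 8.83 in embryonic cells, that of Ero1b 11.42 and 9.85, and that of Glp1r 8.7 and 5.37. These genes were highest in adult cells, whereas the hormone and granin genes were highest in embryonic cells. Which cells their fall came from was not tested. Of 15 vesicle release genes 1 was lower, of 16 receptors 1 was higher and 3 lower, and of 15 other peptide genes 1 was higher and 1 lower. Cck rose by 6.17 ± 0.38, with 10.4, 9.91 and 10.61 in ADM cells, against 3.81, 4.13 and 4.46 in adult cells (limma adjusted p = 7.01e-08). Gal, the neuropeptide galanin, fell by 7.97 ± 0.25 (limma adjusted p = 3e-10).

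In tumor against adult cells, where 14% of all genes were called higher and 5.96% lower, 4 of 8 granule proteins were called lower and 1 higher. Ptprn2 fell by 4.88 (limma adjusted p = 1.44e-08), Scg2 was at least 3.32-fold lower (2.86e-06), and Ptprn was 2.21 higher (0.000136). Of 7 processing enzymes 1 was higher and 2 lower. Of 10 beta cell genes none was higher and 2 lower, with Glp1r at least 34-fold lower (limma adjusted p = 8.52e-08). Glp1r had its highest mean in adult cells, unlike the hormone and granin genes. Of 10 genes of other islet cells 1 was higher, Hhex (1.22 ± 0.31; limma adjusted p = 0.00646), and 3 lower, with Ttr, a thyroid hormone carrier of alpha cells and liver, among them (-6.45 ± 0.26; limma adjusted p = 8.65e-10). None of the 14 endocrine factors was called higher, and 2 were lower. Of 15 vesicle release genes 2 were lower, of 16 receptors 4 and of 15 other peptide genes 1, and none of these was higher.

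**Figure D5:**
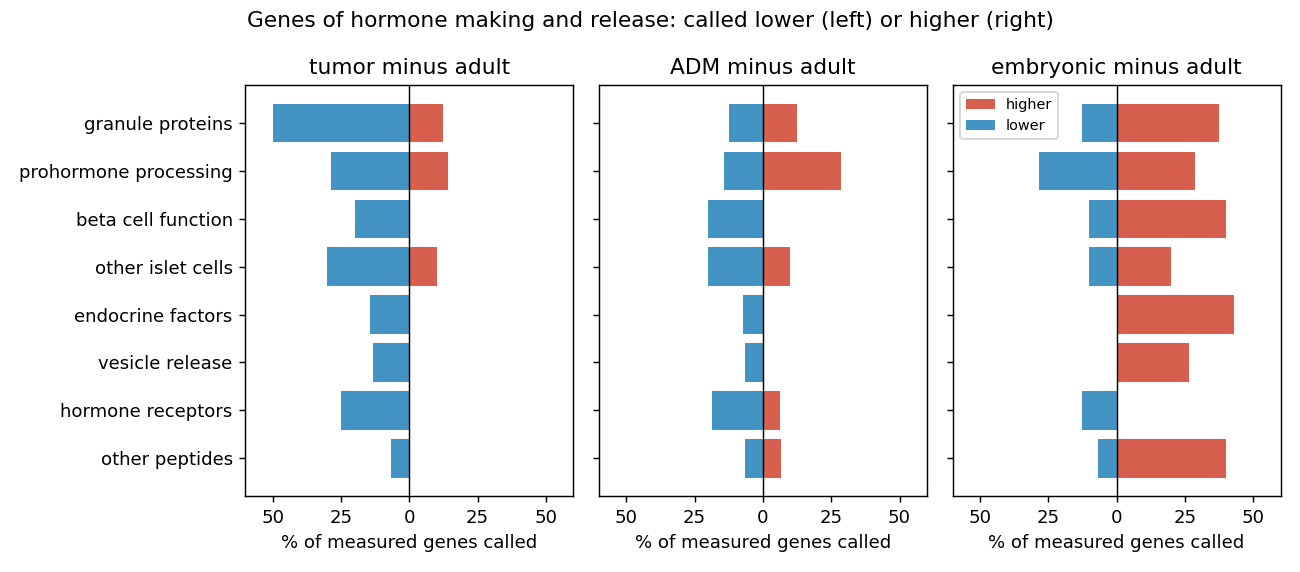
Share of measured genes called lower (left bars) and higher (right bars) than in adult cells, in percent (x axis), for 8 lists of hormone-related genes in tumor, ADM and embryonic cells. In embryonic cells 6 of 14 endocrine factors and 4 of 15 vesicle release genes are called higher; in ADM cells 0 of either list are.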

How the data were processed

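Total RNA was extracted with a column kit, labelled with biotin and hybridised to Affymetrix arrays, per the labels' protocols. The authors deposited 1 log2 value per probe set and array; that the scale is log2 was read from the values, and the software and normalization are not given in the sources used here. Of 41345 probe sets, 23521 carried 1 gene symbol, 1814 several and 16010 none. The single-symbol probe set with the highest mean over 12 arrays stood for each of 22180 genes. All 12 arrays (4 groups of 3) entered 1 fit in limma (version 3.58.1, with R 4.3.3; lmFit and eBayes, two-sided, 8 residual and 5.02 prior degrees of freedom), and 6 contrasts were read. Values after ± are SE beside changes and SD beside levels. Where the lower group lay at or under the background level of 3.61, a change is given as "at least", computed against that level. Genes named besides the members were up to 4 called genes per list and contrast, by absolute change, and the 3 genes of highest Pearson correlation with each member. The members and lists were chosen with earlier results of these data known. The scripts were tested on simulated data. The number of arrays limits the precision.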

Additional observations from a re-analysis of the deposited data

How the results depend on the processing

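The member changes were recomputed with quantile, cyclic loess and housekeeping scaling, without dim genes, with the mean of probe sets, in fits of 2 groups, with array weights, with an intensity trend, with a replicate block and without each array. Of 810 recomputed changes, 776 kept their direction and side of the threshold, 7 lost their call, 13 gained one and 14 turned sign. All 14 lay in 5 changes that were not called. In ADM against adult cells these were Pyy (-0.0538 by quantiles, -0.2267 on housekeeping genes), Chga (-0.1214 by quantiles, -0.0665 by loess, -0.2633 on housekeeping genes), Chgb (-0.044 and -0.1433) and Iapp (0.0499 with array weights, -0.4483 to 0.3217 without single replicates). In tumor against ADM cells it was Ghrl (-0.1 on housekeeping genes, -0.13 to 0.2867 without single replicates). The cause was not tested. The number of members called in ADM against adult cells was 1 to 3 without single replicates, and 1 without ADM replicate 2. Housekeeping centring moved the median change of all genes against adult cells to -0.863 in tumor, -0.717 in ADM and -0.657 in embryonic cells. Against those medians the Gcg change of 0.95 in embryonic cells, which lost its call, was still positive. The share of called genes that were higher was 70.2% in tumor, 74.7% in ADM and 79.3% in embryonic cells against adult cells; it became 13.9%, 20.3% and 20.7% on housekeeping genes, 57.4%, 59.5% and 64% by quantiles, and 53%, 59.4% and 69.1% by loess. In tumor against ADM cells it was 39.3% with the deposited scaling, 28.1% on housekeeping genes, 39.8% by quantiles and 35.4% by loess. In tumor against embryonic cells it was 45.5%, 31.6%, 45.3% and 36.6% in the same order. Housekeeping centring also took the calls over all lists in tumor against adult cells to 109, against 54. Sst in tumor against ADM cells was called at -1.01 by loess, -1.09 on housekeeping genes, and without ADM replicate 2 or tumor replicate 2. Ppy in tumor against adult cells was called without dim genes (limma adjusted p = 0.047) and with an intensity trend (0.0478). Ghrl was called lower on housekeeping genes in tumor (-1.16) and ADM cells (-1.06) against adult cells. A replicate block left the member counts at 3, 9, 7, 9, 6 and 9 in the 6 contrasts. Samples of the same number deviated together at -0.0564 to 0.151, with 1 of 18 pairs above 0.1, so the numbers were not taken to pair the samples. With 3 arrays a group, genes near background have only bounds.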
